A study of Arabidopsis thaliana with 12 samples.

Results

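Arabidopsis T87 suspension cells that had received abscisic acid (ABA) were compared with cells that had received ethanol, the solvent control, on 6 of the 12 arrays of the series. T87 is a dividing suspension culture of the Columbia background (Col-0), grown in sugar-containing medium with the synthetic auxin 1-naphthaleneacetic acid. The ABA group had 3 arrays of cells exposed to 50 µM ABA for 20 h, and the control group had 3 arrays of cells with ethanol for the same 20 h, both taken from exponentially growing cultures aged 5 days (about 120 h). Neither group received dimethylthiourea (DMTU), a scavenger of reactive oxygen species. The other 6 arrays came from cells with 5 mM DMTU, 3 with ABA (ABA+DMTU) and 3 without it (DMTU), and were used for the shared estimate of spread and for 1 side comparison. The groups followed the array titles, and no measured value entered their choice. Whether the 3 replicates were separate cultures is not given in the labels, and the p-values therefore reflect array-to-array spread alone, which may be technical. A suspension culture is undifferentiated, so it shows how dividing cells respond to ABA without guard cells, embryos or roots. In such a bulk sample a lower share of a cell type and less RNA per cell cannot be told apart.

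ABA is the plant hormone that accumulates in drying tissue and in ripening seeds. It binds soluble receptors, which block a class of protein phosphatases and so free protein kinases that activate transcription factors of the bZIP family. Known outcomes are stomatal closure, the synthesis of proteins that protect a drying cell, changes of sugar and storage metabolism, and a stop of growth. Reactive oxygen species are among its second messengers. Of the hormone's own receptors, phosphatases, kinases and their bZIP factors, a single probe set carried a gene symbol in the annotation used, that of the bZIP factor EEL, and its change of 0.25 ± 0.29 did not pass the test (adjusted p = 0.58).

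Levels below are log2 values of the RMA method, so a difference of 1 is a 2-fold change, and levels of different genes are not compared. A probe set was called when its adjusted p was under 0.05. Of 22746 probe sets tested, 8014 were called (35.2%), 3518 higher (15.5%) and 4496 lower (19.8%) in ABA than in control cells. At least 2-fold changes were called for 1659 higher (7.29%) and 2105 lower (9.25%) probe sets. Larger changes leaned upwards: 306 called probe sets were at least 8-fold higher and 181 at least 8-fold lower, while 80 were at least 32-fold higher and 10 at least 32-fold lower. The split depended on the scaling, since 5036 higher and 3522 lower calls were made after the median of each array had been set equal (centring), a step that shifted the median log2 change by 0.149. A gene symbol was available for 1706 probe sets, of which 273 were called higher (16%) and 325 lower (19.1%), and the genes below come from these. Replicate 1 stood apart in both groups, and the values without it are given further down. A sign of RNA quality is the 3' minus 5' log2 difference of control probe sets, and its part in the results was not tested. For a ubiquitin pair it was 0.636, 0.653 and 0.72 on ABA arrays, against 1.011, 0.884 and 0.878 on control arrays. For the actin probe sets furthest apart it was 2.724, 2.682 and 2.546 on ABA arrays, against 3.73, 2.868 and 2.999 on control arrays, again without overlap. For a GAPDH pair and the nearer actin pair the ABA mean was the higher one, at 0.585 and 0.941 against 0.447 and 0.759 in control cells. A second ubiquitin pair and a second GAPDH pair overlapped between groups. Their means were 0.299 and -0.053 in ABA cells against 0.333 and -0.07 in control cells.

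Proteins that protect membranes and other proteins in drying cells gave the largest rise among genes with a symbol, that of LEA4-5. Of 12 probe sets for late embryogenesis abundant (LEA) proteins and dehydrins, 7 were higher and 2 lower in ABA cells, with a median change of 2.27, against 0.01 over all probe sets. LEA4-5 had 12.65, 12.47 and 12.52 on the ABA arrays, against 5.04, 4.10 and 4.09 on the control arrays. The dehydrin LTI30 had 9.72, 11.72 and 11.79 in ABA cells and 4.33, 4.78 and 4.71 in control cells. COR15A, which protects chloroplast membranes in the cold, had 8.42, 9.63 and 9.64 with ABA and 4.01, 4.38 and 4.42 with ethanol. Absence of overlap between the groups was part of the choice of LEA4-5, LTI30 and COR15A. Of all probe sets, 20.7% had all 3 ABA arrays above all 3 control arrays. In LTI30 and COR15A ABA replicate 1 was the lowest of the 3 ABA arrays. The dehydrin COR47 showed the opposite irregularity, since its control replicate 1 was high: 10.48, 10.46 and 10.37 in ABA cells against 7.21, 5.06 and 5.35 in control cells, a change of 4.56 ± 0.45 (SE, adjusted p = 1.61e-05).

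LEA genes that were near the bottom of the scale in control cells also rose. LEA18 had 8.60, 7.58 and 7.50 in ABA cells and 3.73, 3.77 and 3.74 in control cells, a change of 4.14 ± 0.24 (adjusted p = 3.1e-07). AtLEA4-1 rose by 2.58 ± 0.39 (adjusted p = 0.000353), with 7.46, 5.53 and 5.76 in ABA cells against 3.66, 3.66 and 3.70 in control cells. The dehydrin gene with the bare symbol LEA (AT2G21490) rose by 1.95 ± 0.16 (adjusted p = 4.63e-06). Against these stood 2 falls. LEA27 had 4.38, 4.49 and 4.06 in ABA cells against 9.10, 7.62 and 7.74 in control cells, a change of -3.84 ± 0.36 (adjusted p = 1.11e-05). The small dehydrin HIRD11 had 4.93, 7.40 and 7.45 in ABA cells against 8.79, 10.62 and 10.55 in control cells, a change of -3.40 ± 0.71 (adjusted p = 0.00288). Members of this list of LEA proteins and dehydrins thus changed in opposite directions in the same cells, as did the dehydrins among them. COR15B, the close relative of COR15A, had a change of 0.42 ± 0.21 (adjusted p = 0.172), which passed with the replicate number as a block in the 6 arrays (adjusted p = 0.0225).

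**Figure D1:**
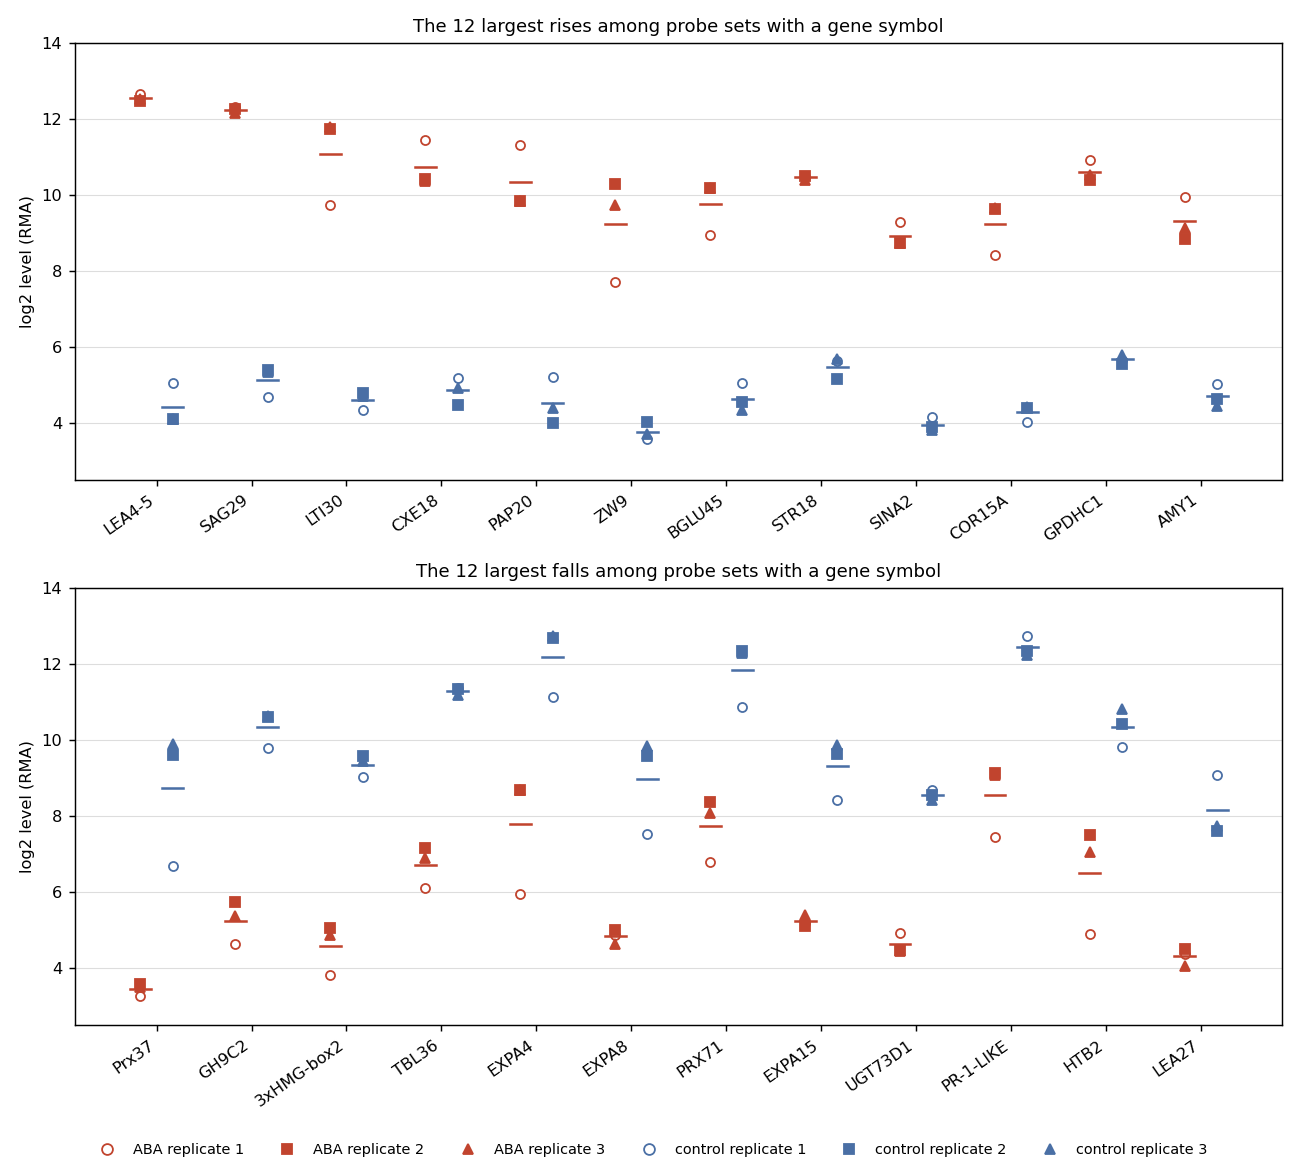
Log2 level on each of the 3 ABA arrays (red, left of each name) and 3 control arrays (blue, right) for the 12 largest rises (upper panel) and 12 largest falls (lower panel) among probe sets with a symbol; open circles are replicate 1, bars are group means. Absence of overlap was part of the choice of these genes. Replicate 1 is often the point farthest from its group, as for LTI30, ZW9, Prx37 and EXPA4.

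Other genes known from drought and ABA responses were mixed: 5 of 17 probe sets were higher and 1 lower, and 8 were higher without replicate 1 of both groups. PUB19, a U-box ubiquitin ligase that dampens ABA responses, rose: it had 9.70, 8.96 and 9.07 in ABA cells against 4.52, 4.84 and 4.82 in control cells, a change of 4.52 ± 0.18 (adjusted p = 2.32e-08). HIS1-3, a linker histone variant made under drought, had 8.19, 7.82 and 7.78 in ABA cells against 3.40, 3.53 and 3.36 in control cells, a change of 4.50 ± 0.34 (adjusted p = 2.41e-06). CHX20, a cation exchanger best known from guard cells, rose by 2.36 ± 0.24 (adjusted p = 1.94e-05). OSM34, an osmotin-like defence protein, rose by 2.16 ± 0.45 and the aldehyde-detoxifying enzyme ALDH7B4 by 1.61 ± 0.21 (adjusted p = 0.0028 and 0.000123). PUB22, another U-box ligase that dampens drought responses, fell: it had 7.69, 7.52 and 7.62 in ABA cells against 8.87, 9.09 and 9.24 in control cells, a change of -1.46 ± 0.16 (adjusted p = 4.11e-05). The U-box ligases PUB19 and PUB22 therefore moved in opposite directions.

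Genes of sugar export, starch and starch breakdown changed in few but large steps. SAG29, a sugar exporter of the SWEET family that rises in senescing leaves, had 12.32, 12.24 and 12.16 in ABA cells against 4.68, 5.40 and 5.33 in control cells. SFP1, a sugar transporter also linked to senescence, had 12.10, 10.51 and 10.86 in ABA cells and 7.94, 6.92 and 6.79 in control cells, a change of 3.94 ± 0.39 (adjusted p = 1.47e-05). The groups did not overlap for either gene, which for SAG29 was part of its choice. Across the 20 probe sets for sugar transporters 3 were higher and 1 was lower, and 5 were higher without replicate 1 (6 with the replicate block and 9 after centring). Leaving out ABA replicate 1 alone gave 5. The lower one was TMT1, which loads sugar into the vacuole, at -0.66 ± 0.16 (adjusted p = 0.00624). SAG29 and SFP1 were thus exceptions in a family whose median change was 0.13. With all arrays its shares of calls did not exceed the 15.5% higher and 19.8% lower of all probe sets.

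The secreted alpha-amylase AMY1, which cuts starch, had 9.94, 8.84 and 9.13 in ABA cells against 5.03, 4.62 and 4.43 in control cells, a change of 4.61 ± 0.27 (adjusted p = 3.6e-07). Genes of starch synthesis rose beside it. APL4 and APL3, large subunits of the enzyme that makes ADP-glucose, changed by 2.46 ± 0.23 and 1.55 ± 0.24 (adjusted p = 9.87e-06 and 0.000379). APL4 had 6.73, 6.76 and 6.65 in ABA cells and 4.35, 4.20 and 4.23 in control cells. The cell wall invertase family member cwINV6, in contrast, fell to 7.05, 6.51 and 6.90 in ABA cells, against 9.78, 9.86 and 9.96 in control cells, a change of -3.05 ± 0.71 (adjusted p = 0.00562). In all, 4 of 8 named sucrose and starch enzymes were higher and 1 lower.

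Breakdown of amino acids had the highest share of rises among the gene lists described here. Plants that run short of carbohydrate oxidise lysine and the branched-chain amino acids in the mitochondrion and pass the electrons through the electron transfer flavoprotein (ETF) to the respiratory chain. Of 9 named genes 7 were higher and 0 lower, with a median change of 1.01, and 8 were higher without replicate 1. LKR, the entry enzyme of lysine breakdown, had 12.74, 11.97 and 12.01 in ABA cells against 8.81, 7.43 and 7.47 in control cells, a change of 4.33 ± 0.35 (adjusted p = 3.56e-06). D2HGDH, a dehydrogenase that feeds ETF, had 9.87, 9.52 and 9.52 in ABA cells and 8.05, 7.79 and 7.82 in control cells. The remaining rises were smaller. IVD, which oxidises the leucine product isovaleryl-CoA, rose by 1.06 ± 0.17, the methylcrotonyl-CoA carboxylase subunit MCCA by 1.37 ± 0.32 and the ETF subunit ETFALPHA by 1.01 ± 0.13 (adjusted p = 0.000505, 0.00541 and 0.000109). For MCCA control replicate 1 lay near the ABA arrays: 8.94, 8.41 and 8.18 in ABA cells against 8.03, 6.57 and 6.81 in control cells. In a fit of the 6 arrays alone 4 members were called higher and MCCA was not (adjusted p = 0.0512).

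Neighbouring mitochondrial genes did not share one direction. Of 18 probe sets for respiration and the citrate cycle 6 were higher and 4 lower. ICDH, a peroxisomal isocitrate dehydrogenase, rose by 1.91 ± 0.16, cytochrome c of the gene CYTC-2 by 1.28 ± 0.30 and the succinate dehydrogenase subunits SDH2-1 (in 1 of its 2 probe sets) and SDH1-1 by 1.18 ± 0.22 and 1.04 ± 0.21 (adjusted p = 4.98e-06, 0.00612, 0.00139 and 0.00208). A second probe set of SDH2-1, near the bottom of the scale, was not called (-0.01 ± 0.10, adjusted p = 0.966). NDB4, an external NADH dehydrogenase that bypasses proton pumping, fell to 4.41, 5.09 and 5.05 in ABA cells, against 6.32, 8.52 and 8.68 in control cells, a change of -2.99 ± 0.62 (adjusted p = 0.00278). Among single enzymes, formate dehydrogenase (FDH) stood at 12.99, 12.81 and 12.89 in ABA cells against 8.99, 9.01 and 8.85 in control cells. The replicates of FDH were tight, and its change of 3.94 ± 0.10 had an adjusted p of 1.58e-09. GPDHC1, a cytosolic dehydrogenase that makes glycerol phosphate, rose by 4.94 ± 0.28 (adjusted p = 3.02e-07), with 10.90, 10.39 and 10.52 in ABA cells and 5.65, 5.55 and 5.79 in control cells. Acyl-ACP thioesterases, which release fatty acids in the plastid, also rose, FaTA by 1.69 ± 0.17 and FATB by 0.92 ± 0.14 (adjusted p = 2.14e-05 and 0.000331).

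Of 11 genes for seed storage, oil and vacuolar proteases 4 were higher and 0 lower in ABA cells. Vacuolar processing enzymes (VPEs) are proteases that mature storage proteins in seeds and act in cell death. BETA-VPE, the main form of seeds, had 8.55, 9.24 and 9.13 in ABA cells against 5.29, 5.72 and 5.32 in control cells, a change of 3.53 ± 0.31 (adjusted p = 6.42e-06). ALPHA-VPE rose by 1.66 ± 0.16 (adjusted p = 1.46e-05). GAMMA-VPE had 11.73, 11.08 and 11.09 in ABA cells and 11.41, 9.19 and 9.22 in control cells, so control replicate 1 lay above ABA replicates 2 and 3 and the groups overlapped. Its change of 1.36 ± 0.48 (adjusted p = 0.0474) lost its call when any of the 5 arrays other than control replicate 1 was left out (adjusted p up to 0.185), and without replicate 1 of both groups the adjusted p was 1.5e-05. Genes of storage products were not called. OLEO3, an oleosin that coats oil bodies, changed by 0.29 ± 0.16 and the vicilin-like storage protein PAP85 by 0.07 ± 0.09 (adjusted p = 0.189 and 0.657), and PAP85 had 3.65, 3.80 and 3.80 in ABA cells and 3.68, 3.72 and 3.64 in control cells, under the lower quartile of all probe sets on these arrays, which lay between 3.842 and 3.922. SDP1, the lipase that opens oil stores at germination, rose by 1.33 ± 0.28 (adjusted p = 0.00283). Of 5 probe sets for the proton pump that acidifies the vacuole 2 were higher and 0 lower, and without replicate 1 of both groups 4 were higher and 1 lower. VHA-A2 had 10.48, 10.56 and 10.46 in ABA cells against 8.76, 8.74 and 8.86 in control cells, a change of 1.72 ± 0.09 (adjusted p = 1.78e-07), and VHA-A3 rose by 0.90 ± 0.14 (adjusted p = 0.000521).

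Autophagy wraps cytoplasm in membranes that carry the ubiquitin-like protein ATG8 and delivers it to the vacuole. Of 11 autophagy probe sets 5 were higher and 0 lower, and 8 were higher without replicate 1 of both groups. ATG8E had 9.03, 8.28 and 8.40 in ABA cells against 7.66, 7.04 and 7.42 in control cells, a change of 1.20 ± 0.29 (adjusted p = 0.00704). ATG8B rose by 0.98 ± 0.24 and APG8A, also of the ATG8 family, by 0.80 ± 0.19 (adjusted p = 0.008 and 0.00579). Replicate 1 was the highest array within both groups for ATG8E, ATG8B and APG8A. Fitting the 6 arrays alone gave 3 higher members, as did leaving out control replicate 2 or 3, and leaving out control replicate 1 gave 8. The ubiquitin-conjugating enzymes split: UBC32, of the endoplasmic reticulum, and UBC30 rose by 1.92 ± 0.23 and 1.55 ± 0.12, whereas UBC20, a partner of the ligase that drives cells through mitosis, fell to 5.44, 6.22 and 5.88 in ABA cells, against 8.29, 9.53 and 9.30 in control cells (adjusted p = 5.74e-05, 3.58e-06 and 1.07e-05). The ubiquitin-specific protease UBP21 fell by 2.04 on the log2 scale (adjusted p = 5.37e-06), and the ligase PUB43 rose by 1.47 ± 0.35 (adjusted p = 0.00603). SINA2, of a family of RING ubiquitin ligases, had 9.27, 8.74 and 8.72 in ABA cells against 4.15, 3.87 and 3.80 in control cells and rose by 4.97 ± 0.19 (adjusted p = 1.45e-08). The vesicle-sorting protein VPS2.2 fell by 2.44 on the log2 scale (adjusted p = 3.43e-05), while VPS36 changed by 0.59 ± 0.19 (adjusted p = 0.0286), a call lost when any of ABA replicates 1 and 3 and control replicates 2 and 3 was left out (adjusted p up to 0.118).

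UDP-glycosyltransferases couple sugars to hormones, phenolics and toxins. Of 49 probe sets 13 were higher and 5 lower, with a median change of 0.15, so that a majority was not called. UGT84A4, a relative of the enzymes that glucosylate sinapate, had 8.71, 9.46 and 9.51 in ABA cells against 4.65, 7.05 and 7.04 in control cells, a change of 2.98 ± 0.59 (adjusted p = 0.00204). UGT74D1, which glucosylates auxin, rose by 2.60 ± 0.36 and UGT71C4 by 2.19 ± 0.14 (adjusted p = 0.000206 and 5.08e-07). UGT73D1 fell to 4.92, 4.49 and 4.46 in ABA cells, against 8.68, 8.55 and 8.43 in control cells, and UGT76C2, which inactivates cytokinins, fell by 1.39 on the log2 scale (adjusted p = 0.000658). Beta-glucosidases remove such sugars, and 5 of 21 were higher and 1 lower (8 higher after centring). BGLU45, which acts on lignin precursors, had 8.94, 10.17 and 10.17 in ABA cells against 5.03, 4.53 and 4.33 in control cells. BGLU19 rose by 2.77 ± 0.35 and BGLU42 fell by 1.02 on the log2 scale (adjusted p = 9.38e-05 and 2.58e-05).

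Hydrolases of other families were among the largest rises. The carboxylesterase CXE18 had 11.44, 10.40 and 10.36 in ABA cells against 5.19, 4.45 and 4.92 in control cells, and the purple acid phosphatase PAP20 had 11.30, 9.84 and 9.84 against 5.19, 4.0 and 4.38 in control cells. ZW9, of the TRAF-like family, had 7.70, 10.27 and 9.72 in ABA cells against 3.57, 4.0 and 3.70 in control cells, and the sulfurtransferase STR18 had 10.47, 10.50 and 10.39 against 5.61, 5.15 and 5.66 in control cells. Replicate 1 was the highest ABA array for CXE18 and PAP20 and the lowest for ZW9. Absence of overlap between groups was part of the choice of these genes. Among serine carboxypeptidase-like proteins, 4 of 29 were higher and 5 lower, near the 15.5% and 19.8% of all probe sets. The member scpl28 rose by 2.5 ± 0.20 and scpl16 fell by 2.38 on the log2 scale (adjusted p = 3.88e-06 and 0.00222). CP1, a papain-type cysteine protease, behaved unlike the vacuolar proteases: it had 3.79, 4.04 and 3.96 in ABA cells against 7.42, 7.65 and 7.84 in control cells, a change of -3.70 ± 0.14 (adjusted p = 1.65e-08). PR-1-LIKE, of a family of secreted defence proteins, fell to 7.46, 9.14 and 9.08 in ABA cells, against 12.75, 12.35 and 12.24 in control cells. Of genes known by locus alone, AT3G22620 had 13.58, 13.26 and 13.28 in ABA cells against 4.88, 5.09 and 4.72 in control cells, and AT5G44400 fell to 4.49, 4.85 and 4.89 in ABA cells, against 11.04, 11.05 and 11.18 in control cells.

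The detoxification and redox families changed little as groups. Of 14 glutathione S-transferases 3 were higher and 2 lower, with GSTU18 at 1.66 ± 0.22 and GSTU22 at -1.46 ± 0.24 (adjusted p = 0.000127 and 0.000574). Of 21 thioredoxin, glutaredoxin and ascorbate-glutathione genes 4 were higher and 3 lower. Without ABA replicate 3 these counts were 2 and 1, and without control replicate 2 the count of higher members was 2. Sulfiredoxin (SRX), which reactivates peroxidases of the thiol type, rose by 1.30 ± 0.22 and glutathione reductase GR1 by 0.86 ± 0.16 (adjusted p = 0.000676 and 0.00147). VTC4, of ascorbate synthesis, changed by -1.23 ± 0.38 (adjusted p = 0.0259), a call lost without ABA replicate 2 or 3 (adjusted p up to 0.0843). These shares lay near the 15.5% and 19.8% of all probe sets. Cytochrome P450 enzymes had 5 higher and 0 lower of 23, with CYP71B23 at 1.70 ± 0.35 (adjusted p = 0.00274).

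Hormone and signalling genes showed single strong changes rather than family-wide ones. WES1 (GH3.5), which removes free auxin by coupling it to amino acids, had 10.60, 9.75 and 9.88 in ABA cells against 6.16, 5.93 and 6.11 in control cells, and WAG2, a kinase that steers auxin efflux carriers, rose by 1.98 ± 0.31 (adjusted p = 0.000431). Of 19 auxin probe sets 4 were higher and 0 lower (2 higher without ABA replicate 2 or control replicate 2 or 3). The shares of all probe sets were 15.5% higher and 19.8% lower. ARR15, a cytokinin response regulator that is itself switched on by cytokinin, fell to 3.91, 4.95 and 4.82 in ABA cells, against 5.42, 6.88 and 7.03 in control cells, a change of -1.88 ± 0.40 (adjusted p = 0.00317). Signal peptides rose in 2 cases: RALFL32, of the rapid alkalinisation factor family, had 7.15, 9.01 and 8.78 in ABA cells against 3.87, 4.21 and 4.15 in control cells, and CLE44, the peptide that holds back xylem differentiation, had 10.23, 10.38 and 10.34 in ABA cells against 8.03, 8.37 and 8.52 in control cells. RALFL22 fell by 0.90 on the log2 scale (adjusted p = 0.000689). Among receptor kinases GSO1, known from the root barrier and embryo cuticle, had 9.12, 7.39 and 7.50 in ABA cells against 4.11, 4.62 and 4.27 in control cells, a change of 3.67 ± 0.40 (adjusted p = 3.43e-05). THE1, a sensor of wall integrity in growing cells, fell by 1.19 on the log2 scale (adjusted p = 0.000233), and in all 5 of 15 receptor kinases were lower.

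Of the transcription factor families, 1 of 6 WRKY factors was higher and 2 lower, 2 of 14 bHLH factors were higher and 1 lower, and 3 of 23 bZIP factors were higher and 3 lower (5 lower without replicate 1 of both groups). Beside these and the AGAMOUS-like counts below stand 15.5% higher and 19.8% lower of all probe sets. WRKY6 rose by 1.49 ± 0.12 and WRKY53, a regulator of senescence and defence, fell to 4.95, 5.12 and 4.83 in ABA cells, against 7.42, 7.01 and 7.01 in control cells (adjusted p = 2.76e-06 and 2.8e-05). UPB1, a bHLH factor that represses peroxidase genes at the edge of the root meristem, had 6.50, 5.81 and 6.18 in ABA cells against 4.52, 3.94 and 3.94 in control cells, a change of 2.03 ± 0.23 (adjusted p = 4.41e-05). The bZIP factors BZIP24 and bZIP52 changed by 1.47 ± 0.33 and -0.77 ± 0.19 (adjusted p = 0.00459 and 0.0081). Among 44 AGAMOUS-like factors 6 were higher and 1 lower (10 higher after centring, and 3 without ABA replicate 1 or control replicate 2 or 3). The annotation gives the symbol AGL79 to 2 loci: the probe set of AT1G30260 changed by 2.01 ± 0.30 (adjusted p = 0.000349), and both probe sets of AT3G30260 were not called (adjusted p = 0.512 and 0.678). Some calls of low size rested on single arrays. MYC4 of the jasmonate pathway (-0.58 ± 0.19) lost its call without ABA replicate 2 or 3 or control replicate 1 (adjusted p up to 0.124), AGL26 (-0.56 ± 0.15, in 1 of its 2 probe sets) lost it without control replicate 3 (adjusted p = 0.0556), and the calmodulin-like CML23 (1.33 ± 0.44) lost it without control replicate 2 or 3 (adjusted p up to 0.101) and with the replicate block (adjusted p = 0.0598). CML43, another calcium sensor of that family, fell to 4.49, 4.90 and 4.54 in ABA cells, against 5.84, 7.04 and 7.09 in control cells (adjusted p = 0.00256).

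Wall-loosening expansins of growing cells gave 3 of the 12 largest falls. Expansins slip the bonds between cellulose and xyloglucan so that a wall can stretch. EXPA4 had 5.96, 8.70 and 8.68 in ABA cells against 11.13, 12.68 and 12.73 in control cells, EXPA8 had 4.87, 5.01 and 4.63 against 7.54, 9.58 and 9.84 in control cells, and EXPA15 had 5.20, 5.10 and 5.40 against 8.43, 9.65 and 9.87 in control cells. EXPB3, of the beta branch, fell to 4.24, 4.65 and 4.73 in ABA cells, against 7.20, 8.63 and 8.77 in control cells, a change of -3.66 ± 0.35 (adjusted p = 1.3e-05). The expansin-like EXLA1 and the xyloglucan endotransglucosylase XTH29 went the other way, at 2.02 ± 0.24 and 1.97 ± 0.30 (adjusted p = 5.63e-05 and 0.000353). Within the joint list of 29 probe sets 4 were higher and 5 lower, with a median change of 0.08 (2 higher in the fit of the 6 arrays alone), so the large falls concerned a minority. Both shares lay near the 15.5% and 19.8% of all probe sets.

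GH9C2, an endoglucanase of a wall-modifying family, had 4.63, 5.75 and 5.37 in ABA cells against 9.80, 10.61 and 10.63 in control cells. In its list of endoglucanases and cellulose synthase-like enzymes 9 of 24 were lower and 2 higher. CSLC5 and CSLC04, of the subfamily that makes the xyloglucan backbone, fell by 1.28 and 1.06 on the log2 scale (adjusted p = 4.01e-05 and 0.000163), and CSLD2, known from root hairs, rose by 1.24 ± 0.25 (adjusted p = 0.00218). The trichome birefringence-like family, which acetylates wall sugars, had 5 higher and 5 lower of 24, beside 15.5% and 19.8% of all probe sets. The count of lower members was 3 without ABA replicate 2 or 3 or control replicate 1 or 3, and after centring. In this family TBL38 had 7.29, 7.78 and 8.09 in ABA cells against 5.44, 4.26 and 4.41 in control cells, while TBL36 had 6.11, 7.16 and 6.91 in ABA cells against 11.38, 11.35 and 11.18 in control cells. Among pectin enzymes PMEPCRF rose by 1.78 ± 0.17 (adjusted p = 1.46e-05) and ATPMEPCRB changed by -1.55 ± 0.51 (adjusted p = 0.0337), a call lost without ABA replicate 1 or control replicate 2 or 3 (adjusted p up to 0.129). Class III peroxidases, which stiffen or loosen walls, also split. Prx37 had 3.27, 3.58 and 3.52 in ABA cells against 6.70, 9.60 and 9.90 in control cells and PRX71 had 6.80, 8.37 and 8.08 against 10.88, 12.34 and 12.30 in control cells, whereas PRX25 and PRX52, the last of which polymerises lignin, rose by 1.82 ± 0.19 and 1.57 ± 0.14 (adjusted p = 2.11e-05 and 6.66e-06).

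Cell division genes fell broadly. Of 23 probe sets for mitosis and cytokinesis 17 were lower and 1 higher, with a median change of -1.30. With probe sets of below-median mean level left out, a step that also shortened the list, 7 members were called lower. The Aurora kinases, which control chromosome attachment and the division plane, all fell: AUR1 had 4.26, 5.25 and 4.92 in ABA cells against 7.39, 8.49 and 8.54 in control cells, AUR2 changed by -2.02 ± 0.31 and AUR3 by -1.84 ± 0.16 (adjusted p = 1.35e-05, 0.000359 and 4.81e-06). 3xHMG-box2, a protein of mitotic chromosomes, had 3.83, 5.06 and 4.89 in ABA cells against 9.03, 9.58 and 9.46 in control cells, and its relative 3xHMG-box1 fell by 2.26 on the log2 scale (adjusted p = 0.00016). Topoisomerase TOPII, which untangles sister chromosomes, had 4.48, 4.58 and 4.46 in ABA cells against 7.40, 7.28 and 7.32 in control cells, with close replicates and a change of -2.83 ± 0.16 (adjusted p = 2.75e-07). The spindle checkpoint was included, with BUBR1 at -1.33 ± 0.21, BUB3.2 at -1.11 ± 0.16 and BUB3.1 at -0.86 ± 0.13 (adjusted p = 0.000429, 0.000275 and 0.000399). The condensin subunit ATSMC2, the histone kinase Haspin and the inner centromere protein WYR fell by 1.96, 1.62 and 1.66 on the log2 scale (adjusted p = 2.67e-06, 1.67e-05 and 3.85e-06). For the cytokinetic kinase FU both probe sets fell, by 2.22 and 1.06 on the log2 scale, and for the microtubule bundler ATMAP65-6 and the phragmoplast motor KINESIN-12B the changes were -1.30 ± 0.14 and -1.23 ± 0.19 (adjusted p = 3.26e-05 and 0.000371). The member called higher, ATZW10, changed by 0.40 ± 0.13 (adjusted p = 0.027) and lost its call without ABA replicate 1 or 2 or control replicate 2 or 3 (adjusted p up to 0.087).

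**Figure D2:**
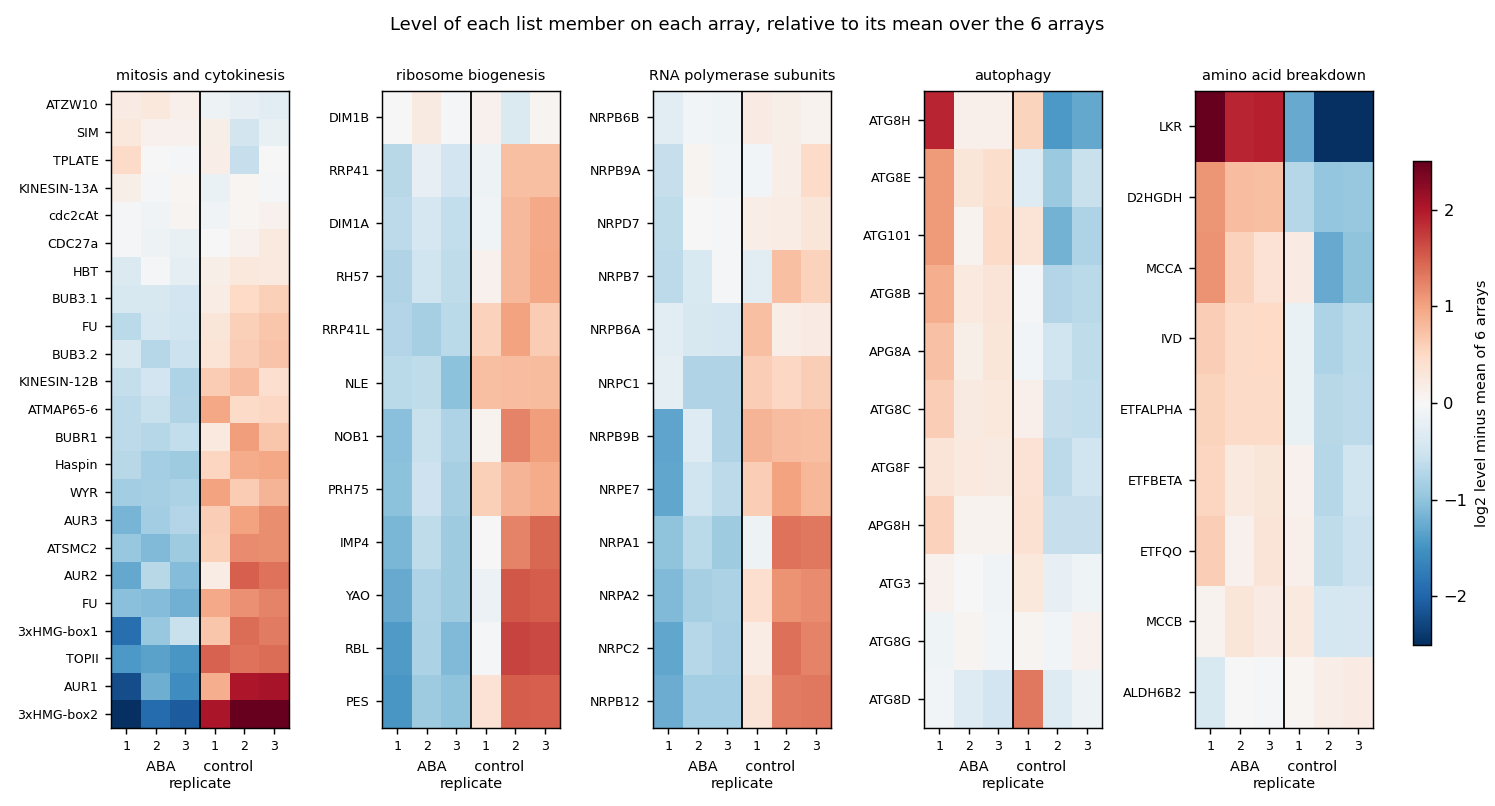
Log2 level of each member on each of the 6 arrays minus its mean over them, ABA arrays left of the black line and control arrays right, for 5 gene lists ordered by change. Mitosis, ribosome and RNA polymerase genes are low (blue) in the ABA columns with replicate 1 of the control group paler than replicates 2 and 3 in many rows, and the amino acid breakdown genes LKR to IVD are high (red).

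DNA replication and repair went with division: 18 of 24 probe sets were lower and 2 higher, with a median change of -1.03. With probe sets of below-median mean level left out, which also shortened this list, 8 members were called lower. POLA3, a primase subunit, had 5.04, 5.80 and 5.47 in ABA cells against 9.05, 9.02 and 9.07 in control cells, a change of -3.61 ± 0.17 (adjusted p = 6.89e-08). PRL, the MCM7 subunit of the replicative helicase, had 3.81, 4.51 and 3.87 in ABA cells against 7.46, 7.58 and 7.77 in control cells. ICU2, the catalytic subunit of DNA polymerase alpha, PSF2 of the GINS complex and the TIMELESS homologue ATIM fell by 2.07, 1.72 and 2.5 on the log2 scale (adjusted p = 3.38e-06, 5.83e-05 and 4.49e-07). FANCM, a helicase that limits crossing over, changed by -2.21 ± 0.25 and the polymerase delta subunit POLD3 by -1.02 ± 0.22 (adjusted p = 4.91e-05 and 0.00308). The 2 members called higher were repair genes, RAD4 of nucleotide excision repair at 0.85 ± 0.10 and REV7 of translesion synthesis at 0.68 ± 0.14 (adjusted p = 7.26e-05 and 0.00218).

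Histones of chromatin assembly fell while the drought-linked linker histone rose. HTB2, an H2B gene, had 4.90, 7.51 and 7.07 in ABA cells against 9.81, 10.43 and 10.84 in control cells, and HTB1 had 7.90, 8.31 and 8.12 against 9.64, 10.13 and 10.14 in control cells. HTR12, the centromeric histone H3, changed by -2.0 ± 0.29 (adjusted p = 0.000281). The H2B genes HTB11 and HTB4 had smaller changes of -0.70 ± 0.17 and -0.52 ± 0.10 (adjusted p = 0.00637 and 0.00129). In all, 5 of 7 histone probe sets were lower and HIS1-3 was higher. Of the tubulins, TUB5, TUB6, TUB7, TUB9 and TUA6 were lower, from -2.69 ± 0.23 for TUB7 to -1.12 ± 0.23 for TUB9 (adjusted p = 5.1e-06 and 0.00267), whereas the actins ACT11 and ACT12 were higher at 0.65 ± 0.16 and 0.43 ± 0.10 (adjusted p = 0.0071 and 0.00481). TUB7 had 6.94, 7.31 and 7.39 in ABA cells against 9.62, 10.08 and 10.01 in control cells.

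The machinery that makes ribosomes and transcripts was lower nearly throughout. Of 12 probe sets for ribosome biogenesis 11 were lower and 0 higher, with a median change of -1.57. PES, needed to mature the large ribosomal subunit, had 8.01, 8.57 and 8.46 in ABA cells against 9.82, 10.98 and 10.96 in control cells, a change of -2.24 ± 0.27 (adjusted p = 6.56e-05). The nucleolar proteins RBL, YAO and IMP4 fell by 2.21, 1.95 and 1.78 on the log2 scale, and NOB1, of the last cut of the small-subunit RNA, by 1.58 (adjusted p = 0.001, 0.00214, 0.000733 and 0.000413). RBL here is AT3G55510. The probe set of AT3G21060, to which the annotation gives the same symbol, was not called (adjusted p = 0.294). RRP41, of the RNA exosome, had the smallest called change at -0.91 ± 0.22 (adjusted p = 0.00655). YAO had 5.90, 6.39 and 6.28 in ABA cells against 7.02, 8.72 and 8.67 in control cells, with control replicate 1 the lowest of its group and still above every ABA array. The count of 11 lower members was the same without replicate 1 of both groups.

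Subunits of the nuclear RNA polymerases showed 10 lower and 0 higher of 12, with a median change of -1.37. Among them were subunits of the ribosomal RNA polymerase I, with NRPA2 at -1.82 ± 0.19 and NRPA1 at -1.70 ± 0.31, and of polymerase III of transfer RNA genes, with NRPC2 at -1.87 ± 0.26 and NRPC1 at -1.17 ± 0.24 (adjusted p = 2.62e-05, 0.00128, 0.000212 and 0.00288). The small shared subunit NRPB12 had 7.86, 8.26 and 8.25 in ABA cells against 9.42, 10.40 and 10.43 in control cells, a change of -1.96 ± 0.24 (adjusted p = 8.98e-05). Chaperones had 11 lower and 0 higher of 23, with a smaller median of -0.49. Hsp70-2 had 8.51, 8.47 and 8.51 in ABA cells against 10.35, 10.25 and 10.47 in control cells, the plastid chaperonin Cpn60beta2 changed by -1.61 ± 0.26 and the Hsp70-Hsp90 organiser Hop1 by -1.05 ± 0.12 (adjusted p = 1.02e-06, 0.000524 and 5.69e-05). Organelle proteins of the pentatricopeptide repeat type, which process organelle RNA, had 6 lower and 0 higher of 17, with PPR596 at -2.67 ± 0.45 (adjusted p = 0.000686).

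**Figure D3:**
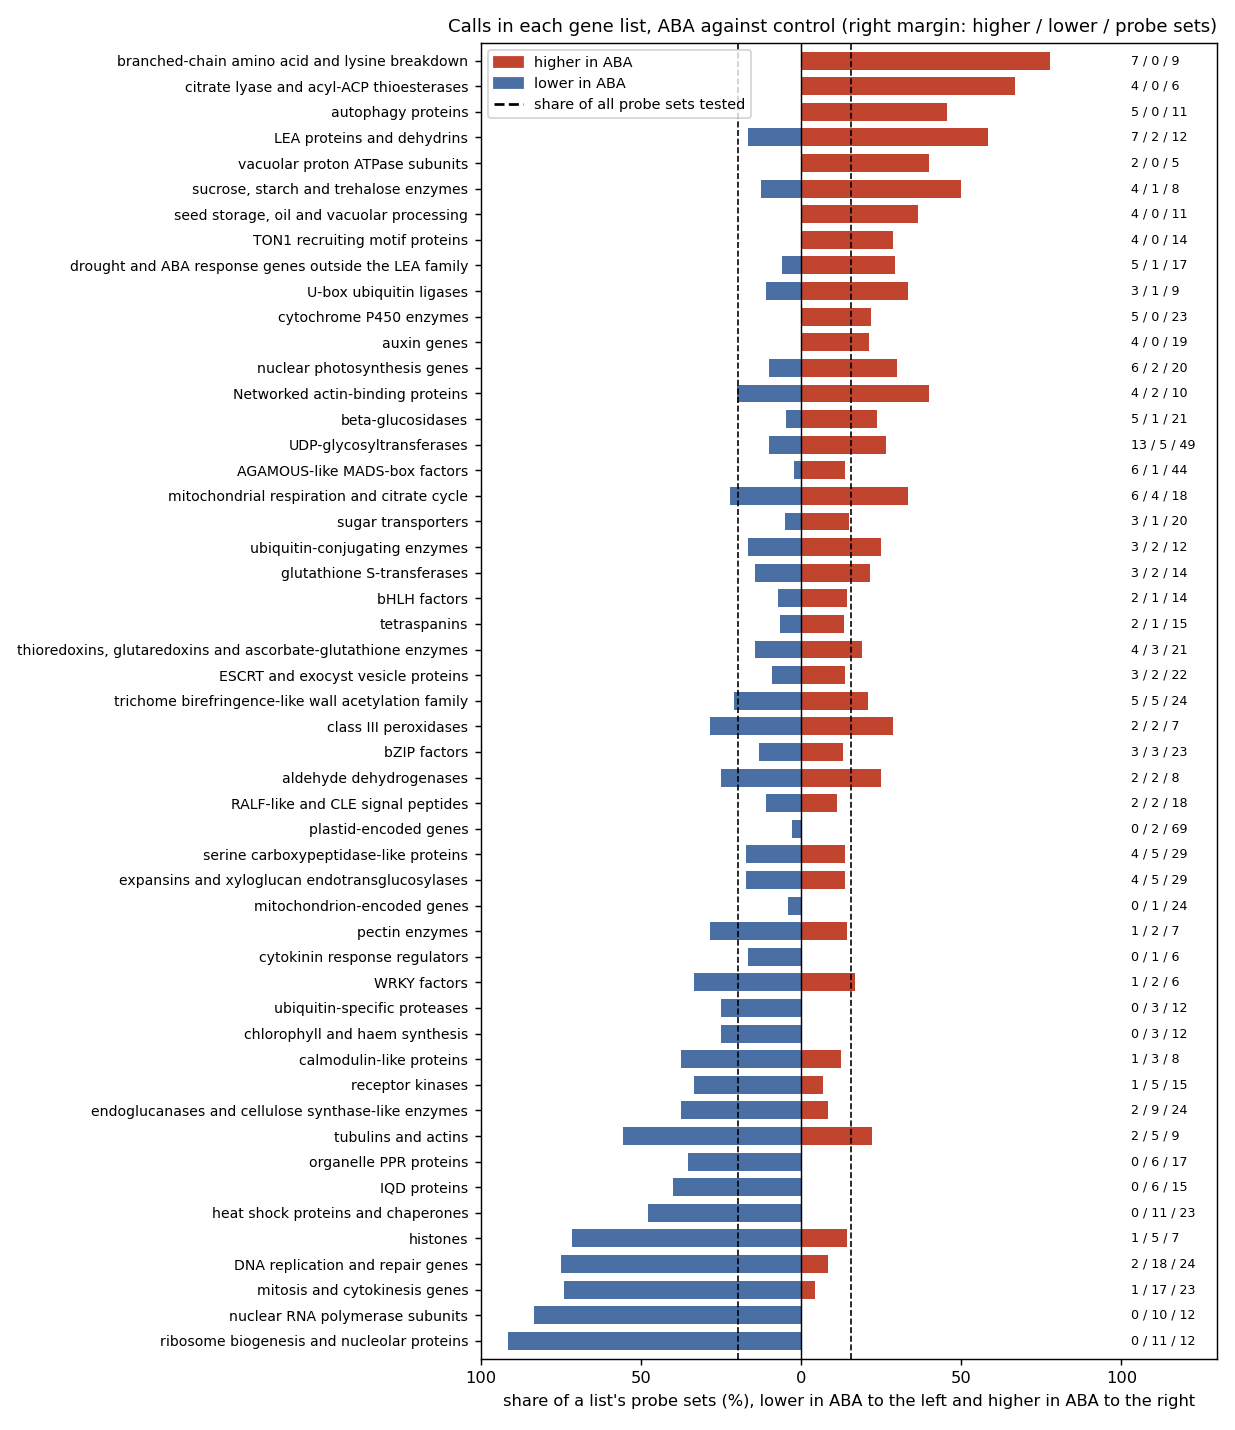
Share of each gene list's probe sets called higher (red, to the right) and lower (blue, to the left) in ABA than in control cells, with the counts in the right margin; dashed lines mark 15.5% and 19.8%, the shares over all probe sets. Ribosome biogenesis (11 of 12 lower) and amino acid breakdown (7 of 9 higher) lie at the ends, and plastid-encoded genes have 2 calls among 69 probe sets.

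Of the Networked proteins, which tie actin to membranes, 4 were higher and 2 lower of 10, with NET1B at 2.65 ± 0.23 and its close relative NET1A at -1.50 ± 0.25 (adjusted p = 6.01e-06 and 0.000681). IQD proteins, which bind calmodulin and microtubules, had 6 lower and 0 higher of 15, with IQD31 at -1.66 ± 0.18 (adjusted p = 3.03e-05). TON1 recruiting motif proteins had 4 higher and 0 lower of 14, with TRM15 at 1.15 ± 0.19 (adjusted p = 0.000676), and 2 were higher without ABA replicate 1 or control replicate 2. The tetraspanins TET10 and TET9, membrane organisers, changed by 1.60 ± 0.24 and -1.29 ± 0.38 (adjusted p = 0.000289 and 0.02), and TET9 lost its call without ABA replicate 2 or 3 or control replicate 1 (adjusted p up to 0.0828).

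Nuclear photosynthesis genes had 6 higher and 2 lower of 20 (9 higher without replicate 1 of both groups, and 3 without ABA replicate 2 or 3 or control replicate 1), with the antenna protein LHCB4.3 at 1.23 ± 0.39 among the higher and the photosystem repair factor PSB27 at -0.99 ± 0.14 among the lower (adjusted p = 0.0306 and 0.000197). LHCB4.3 lost its call without ABA replicate 2 or 3 or control replicate 1 (adjusted p up to 0.117). The haem and chlorophyll synthesis enzyme HEMB1 fell by 0.98 on the log2 scale (adjusted p = 0.00155), and 3 of 12 genes of that pathway were lower. In the same comparison 15.5% of all probe sets were higher and 19.8% lower. Plastid-encoded genes had 2 lower and 0 higher of 69, and without replicate 1 of both groups 0 lower and 2 higher. On the DMTU arrays 19 of them were higher in ABA+DMTU than in DMTU cells, where 18.8% of all probe sets were, and the difference between these counts was not tested. Mitochondrion-encoded genes had 1 lower of 24, ccb452 at -1.0 ± 0.36 (adjusted p = 0.0489), a call lost when any of the 5 arrays other than control replicate 1 was left out (adjusted p up to 0.159). Among aldehyde dehydrogenases ALDH2C4 changed by -0.91 ± 0.30 (adjusted p = 0.0322), which did not pass without ABA replicate 1 or 2 or control replicate 2 or 3 (adjusted p up to 0.122).

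Marker genes of differentiated cell types were measured as a check of the label. Of 2 named markers of xylem, 4 of the stomatal lineage, 2 of root hairs and 8 of pollen and gametes, the lowest adjusted p was 0.109, for the xylem gene IRX15-L, which passed without control replicate 2 (adjusted p = 0.0406). Without replicate 1 of both groups 1 root hair marker was called lower and 1 pollen marker higher. Their mean log2 levels lay between 3.577 and 3.684 on ABA arrays and 3.522 and 3.591 on control arrays for the stomatal lineage, and between 4.017 and 4.218 on ABA arrays and 3.969 and 4.074 on control arrays for pollen. They lay between 3.574 and 3.827 on ABA arrays and 3.883 and 3.995 on control arrays for xylem, and between 3.765 and 3.898 on ABA arrays and 3.689 and 4.28 on control arrays for root hairs. The lower quartile of all probe sets lay between 3.842 and 3.922 on these 6 arrays. Under that quartile on all 6 arrays lay 3 markers of the stomatal lineage, 6 of pollen, 1 of xylem and 0 of root hairs.

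Replicate 1 was examined because it stood apart in both groups. Its log2 differences from replicates 2 and 3 had standard deviations of 0.505 and 0.465 among ABA arrays and 0.565 and 0.55 among control arrays, against 0.174 between ABA replicates 2 and 3 and 0.167 between control replicates 2 and 3. The deviation was shared: 229 probe sets were at least 2-fold higher in replicate 1 than in the mean of replicates 2 and 3 in both groups, 139 were at least 2-fold lower in both, and 8 deviated in opposite directions. ATSPS4F, a sucrose-phosphate synthase, had 7.31, 4.04 and 4.14 on ABA arrays and 7.56, 4.20 and 4.04 on control arrays, so that the replicate number and not the treatment parted its values. The plastid gene atpA had 11.89, 9.70 and 10.10 on ABA arrays and 11.82, 9.60 and 9.23 on control arrays, and the lectin JAL33 had 5.36, 9.92 and 9.38 on ABA arrays and 7.01, 9.04 and 9.30 on control arrays. None of ATSPS4F, atpA and JAL33 was called (adjusted p = 0.956, 0.777 and 0.906).

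In scpl48 and BGLU25 the same deviation sat on top of a difference between ABA and control arrays. The carboxypeptidase-like scpl48 had 10.46, 7.60 and 7.83 on ABA arrays and 7.04, 4.94 and 5.19 on control arrays, a change of 2.91 ± 0.75 with all arrays (adjusted p = 0.00968) and of 2.65 without replicate 1 (adjusted p = 0.0003), and it did not pass in the fit of the 6 arrays alone (adjusted p = 0.0572). For BGLU25 the levels were 10.70, 8.27 and 8.73 on ABA arrays and 12.97, 9.65 and 10.02 on control arrays. Its change of -1.65 ± 0.78 did not pass with all arrays (adjusted p = 0.136), and it passed without replicate 1 of both groups (adjusted p = 0.000163), without ABA replicate 1 alone (adjusted p = 0.0315) and with the replicate number as a block in the 6 arrays (adjusted p = 0.00426). In NRT2.5, chosen after its values were seen, replicate 1 stood apart in the control group alone. This nitrate transporter had 4.33, 4.67 and 4.38 on ABA arrays and 4.62, 8.03 and 8.03 on control arrays. Its control replicate 1 was thus at the level of the ABA arrays. Its change was -2.43 ± 0.71 with all arrays (adjusted p = 0.0196) and -3.50 without replicate 1 of both groups (adjusted p = 1.46e-06), and the call was lost without ABA replicate 3 or control replicate 2 or 3 (adjusted p up to 0.0862).

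**Figure D4:**
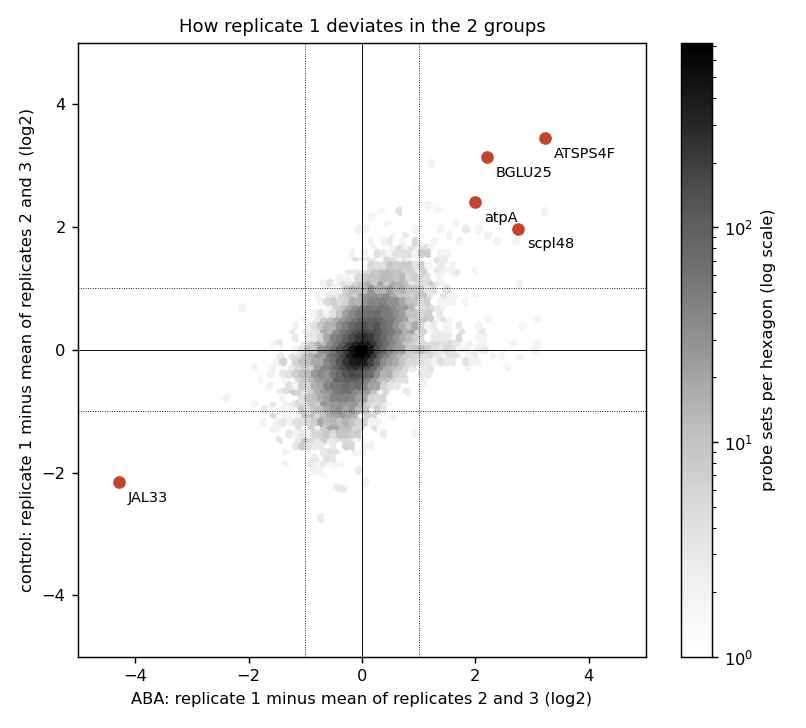
Deviation of replicate 1 from the mean of replicates 2 and 3 (log2), ABA group on the x axis and control group on the y axis, for all 22746 probe sets as a grey density, with the 5 named probe sets that deviated most the same way in both groups in red; dotted lines mark 2-fold. The cloud runs from lower left to upper right, and JAL33 lies far below the rest.

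Most calls did not depend on replicate 1. Without it in both groups 8591 probe sets were called, 4001 higher (17.6%) and 4590 lower (20.2%). Of the 8014 calls made with all arrays, 7308 were made again in the same direction (91.2% of 8014 and 85.1% of 8591), 706 were not made again, and 0 were made in the opposite direction by limma. Among the 3764 calls of at least 2-fold, 3724 were made again. Across the 22746 probe sets the deviation of control replicate 1 had a correlation of r = 0.359 with the ABA change measured under DMTU on the other 6 arrays, and the deviation of ABA replicate 1 had r = 0.24. Probe sets are not independent replicates, so these values are descriptions. What set replicate 1 apart is not stated in the labels and was not tested.

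The ABA change of the named genes was set beside the same change measured in the presence of DMTU, on arrays that did not enter the log2 changes above. The standard errors and adjusted p of both rest on the spread shared by all 12 arrays. Of all probe sets 18.8% were called higher and 20.6% lower in ABA+DMTU than in DMTU cells. In the gene lists 15 of 23 mitosis probe sets were lower in ABA+DMTU than in DMTU cells, 11 of 12 for ribosome biogenesis were lower, and 7 of 9 for amino acid breakdown were higher. Other lists differed more. LEA proteins and dehydrins had a median change of 0.66, against 2.27 without DMTU. Endoglucanases and cellulose synthase-like enzymes had 6 higher and 5 lower, against 2 and 9 without DMTU. Nuclear photosynthesis genes had 14 higher, against 6, and citrate lyase and acyl-ACP thioesterases 1, against 4. These differences between lists were not tested. For several genes the sizes differed, as tested by the interaction, the change in the presence of DMTU minus that in its absence. Many named genes were chosen for a large change in its absence, the term that is subtracted. That choice alone can push interactions below 0 for raised genes and above 0 for lowered genes, and its part was not tested. CP1 fell by 3.70 with ABA on the log2 scale, and its change with DMTU present was -0.06 ± 0.14, an interaction of 3.64 ± 0.20 (adjusted p = 2.37e-05). LEA18 changed by 0.89 ± 0.24 in the presence of DMTU against 4.14 ± 0.24 in its absence, an interaction of -3.25 ± 0.34 (adjusted p = 0.000673). HIS1-3, APL4 and SAG29 also changed less with DMTU present, with interactions of -3.09 ± 0.49, -2.18 ± 0.32 and -2.31 ± 0.27 (adjusted p = 0.00801, 0.00555 and 0.00151). PMEPCRF, UPB1 and FDH rose more, with interactions of 2.25 ± 0.25, 1.84 ± 0.33 and 1.77 ± 0.15 (adjusted p = 0.00102, 0.0149 and 0.000167). LEA4-5, LTI30 and COR15A had interactions of -1.22 ± 0.36, -0.87 ± 0.71 and 0.47 ± 0.39 that did not pass (adjusted p = 0.107, 0.644 and 0.651).

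**Figure D5:**
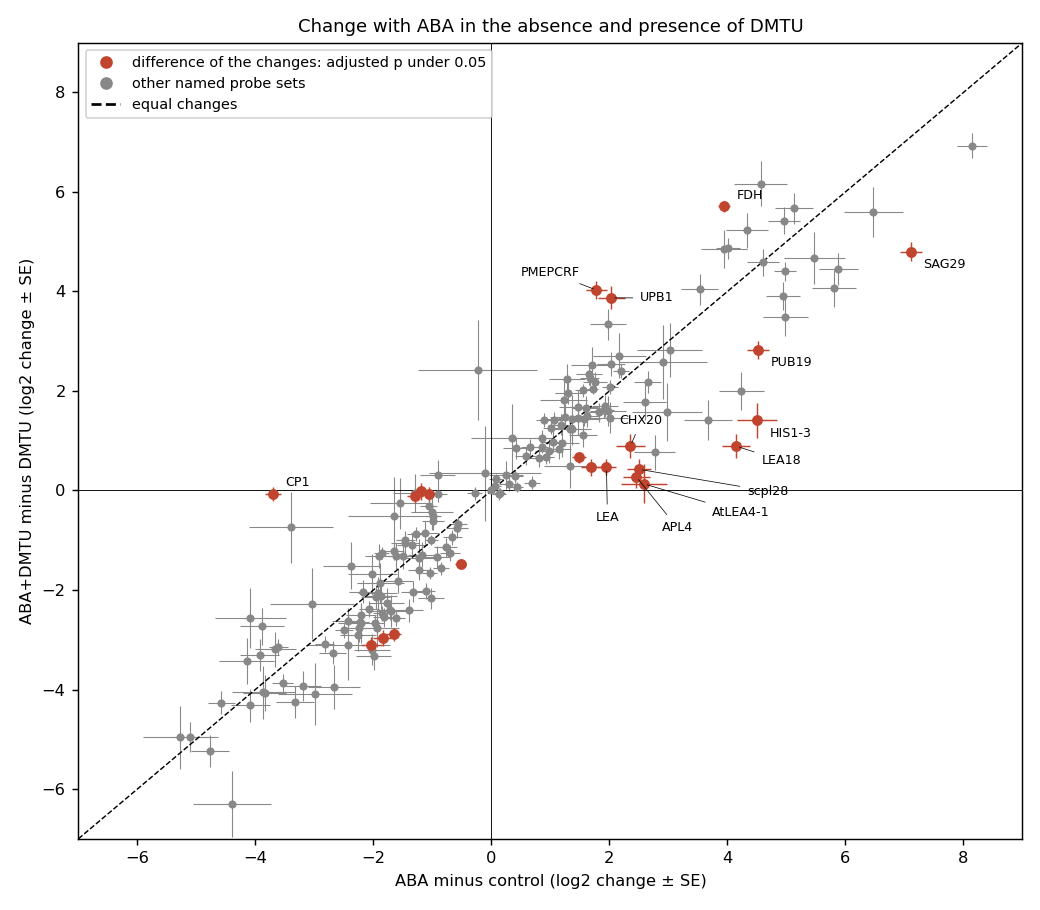
Log2 change with ABA without DMTU (ABA minus control, x axis) and with DMTU (ABA+DMTU minus DMTU, y axis) for the named probe sets with a symbol, ± SE from limma; red points have an interaction with adjusted p under 0.05 and the dashed line marks equal changes. Most points lie near the line, and CP1 lies at -3.70 ± 0.14 on the x axis and near 0 on the y axis.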

How the data were processed

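RNA from T87 cells was labelled and hybridised to 12 Affymetrix arrays, 3 per group. The authors deposited 1 log2 value per probe set and array, and the submitters' processing notes name RMA and limma, with no version or setting. Scanner files were not used here. Values were taken as deposited. Of 22810 probe sets, 64 control probe sets were left out. A gene was taken from the platform annotation: 13513 probe sets had 1 gene, 503 several and 8730 none, and 13436 matched the gene table. limma 3.58.1 in R 4.3.3 fitted a mean per group over the 12 arrays (8 residual degrees of freedom), with Benjamini-Hochberg adjustment over 22746 probe sets. Every adjusted p in the text is limma's, and errors after ± are its standard errors. On simulated data with 200 changed probe sets of 22746, it recovered 170 and made 11 false calls. The simulated errors were independent between arrays, without the deviation of replicate 1 shared by both groups, and far fewer probe sets changed than the 35.2% called here. These counts therefore do not carry over to the calls above.

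Arrays of the same replicate number deviated together (r = 0.518, 0.417 and 0.39 across probe sets for replicates 1, 2 and 3), which met the rule for pairing, although replicates 2 and 3 also correlated across numbers (r = 0.415 and 0.437). Deviations were taken from the mean of 3 arrays, so a large deviation of replicate 1 moves replicates 2 and 3 the other way. The values of replicates 2 and 3 therefore cannot show pairing. The labels do not say what a shared number means, so the main fit had no term for it and the replicate block was an alternative. In the main fit a deviation shared by both groups counts as spread within them. Genes were named as the 12 largest rises and falls without overlap, the extreme called members of each list and the 5 probe sets with the largest shared deviation of replicate 1. Other genes named were chosen after their values were seen. The members and the 56 gene lists were chosen, and some lists rewritten, with earlier results of these data known. Planned promoter motif counts were not made. Alternatives were the 6 arrays alone, the replicate block, centring, quantile normalization, a filter on dim probe sets, array weights, a trended robust fit and leaving out arrays. The number of arrays limits the precision.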

Additional observations from a re-analysis of the deposited data

Results flagged for a closer look

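For 23 of the 193 probe sets followed for the text the change with ABA differed between cells with and without DMTU, by the interaction in limma (adjusted p under 0.05). The share of all probe sets with such an interaction was not counted. Whether 23 is many or few therefore cannot be told. Each value is the log2 change with DMTU present minus that in its absence. Many of the probe sets were chosen for a large change in its absence, which alone can push these values against the direction of that change. It was -3.27 for AT3G22620, -3.25 for LEA18, -3.09 for HIS1-3, -2.45 for AtLEA4-1, -2.31 for SAG29 and -2.18 for APL4. It was -2.07 for scpl28, -1.70 for PUB19, -1.48 for LEA, -1.46 for CHX20 and -1.23 for FaTA. These genes all rose with ABA alone, as did WRKY6 at -0.83. For genes that fell with ABA alone it was -1.23 for WYR, -1.12 for AUR3, -1.07 for UBP21 and -0.95 for HTB4. It was 0.99 for 1 probe set of FU, 1.17 for THE1, 1.18 for ATMAP65-6 and 3.64 for CP1, which also fell with ABA alone. It was 1.77 for FDH, 1.84 for UPB1 and 2.25 for PMEPCRF, which rose with ABA alone.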

How the results depend on the processing

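The 8014 calls (3518 higher, 4496 lower) were compared with those of each alternative. Array weights, which gave replicate 1 weights of 0.262 in the ABA group and 0.174 in the control group, made 12891 calls, 6327 of them higher. Keeping replicates 2 and 3 of both groups in a fit of 4 arrays, an alternative chosen after seeing the data, made 11215 calls, 5364 of them higher. The other alternatives left the total within 1.5 times: 6737 calls with the 6 arrays alone, 8364 with the replicate number as a block in these, 8068 with the block in all 12 arrays, 8558 after centring, 7952 after quantile normalization, 6084 without dim probe sets, 7816 with the trended robust fit and 8591 without replicate 1. Leaving out 1 array at a time gave 6650 to 8754 calls, 2849 to 4025 higher and 3798 to 4729 lower, and 3425 to 4255 of at least 2-fold. Of 193 probe sets followed for the text, 179 were called and 14 were not. Among the 179, none had the opposite sign under these alternatives, and the filter on dim probe sets kept 135 of them. Among the 14, 5 changed sign under at least 1 alternative: atpA, ATSPS4F, JAL33, EEL and the dim probe set of SDH2-1. The fit of the 6 arrays alone lost the most calls, 13. The replicate block changed the calls of CML23, BGLU25 and COR15B, given above, and no other call among these probe sets. Of 47 list counts of 3 or more calls, 16 moved by over 1.5 times with array weights, 14 without dim probe sets, 10 in the fit of 4 arrays, 6 with the 6 arrays alone, 6 without replicate 1, 5 after centring and 3 to 6 when 1 array was left out. What sets the differences between alternatives was not tested. Probe sets at the low end of the scale cannot show a fall.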
